A study of Homo sapiens with 8 samples.

Results

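Cells carrying a mutant IGF2BP2 were compared with control cells in MOLM13, a cell line established from a human acute myeloid leukemia. The comparison uses 4 of the 8 libraries of the series, the 2 labelled mutant rescue and the 2 labelled control, and all 24407 named genes of the deposited table that are not at 0 in every library, of 35370 listed. Of these, 13016 passed a filter on low values and were tested, and 11391 did not. Control cells carry the genotype label WT, and the mutant rescue cells the label IGF2PB2-mut rescue, in which letters of the gene symbol are transposed. The other 4 libraries, 2 of an IGF2BP2 knockdown and 2 of an IGF2BP2 rescue, entered the model and are given beside the results. A single infection protocol, with virus, polybrene and puromycin if selection was needed, is given for all samples. The labels do not state the mutation, the hairpin, the vector of the control, or that the mutant was put into knockdown cells, so effects of the virus or of selection cannot be told apart from those of the mutant. Whether replicates came from separate cultures is not in the labels, and the p-values cover the spread of these libraries alone, and that spread may be technical.

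IGF2BP2 encodes an RNA-binding protein that recognises N6-methyladenosine, a methyl mark on messenger RNA, and is known for stabilising the transcripts it binds. The series title places it upstream of PRMT6, a protein arginine methyltransferase, and of MFSD2A, a transporter of lysophospholipids, in leukemia stem cells. Myeloid leukemia cells are blocked on the way to monocytes and granulocytes, and a loss of that block usually goes with more lysosomal and phagocyte transcripts and fewer replication transcripts.

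Replicates were farther apart in mutant rescue than in the other groups: over the tested genes, log2 differences between replicates had an SD of 0.303 there and 0.212 in control, 0.148 in knockdown and 0.232 in rescue. Replicates lay over 1 log2 unit apart for 124 tested genes in mutant rescue and 18 in control. The first principal component, with 41.2% of the variance, ran from control (scores of -27.91 and -24.30) to mutant rescue (16.28 in replicate 1 and 25.29 in replicate 2). Knockdown scored -8.20 and -8.87 on it, and rescue 13.32 and 14.40, near mutant rescue replicate 1. Mutant rescue replicate 2 stood apart from replicate 1 on the second component (-21.48 against -7.45). In replicate 2 the medians over 79 cytosolic ribosomal protein genes, 13 mitochondrially encoded genes and 64 nuclear respiratory chain genes were 0.35, 0.51 and 0.23 higher than in replicate 1. The depth of the libraries is unknown.

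Every value below is a deposited log2 value, every difference is mutant rescue minus control on that scale unless said otherwise, and a call is a Benjamini-Hochberg adjusted p under 0.05 in limma. Deposited values are not scaled for transcript length, so levels are compared between libraries and not between genes. In bulk RNA, fewer cells of a type and less RNA per cell cannot be told apart.

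The transcript targeted in the series did not differ in level between mutant rescue and control beyond the spread of the libraries. IGF2BP2 (chromosome 3, 185643739 to 185825056, minus strand, GRCh38) stood at 10.94 and 10.89 in control and at 11.03 and 10.68 in mutant rescue, so that the mutant libraries lay on either side of the control. The difference was -0.06 (SE 0.13, adjusted p = 0.749), and it lay between -0.23 and 0.11 in the fits without 1 library. Knockdown libraries were at 10.24 and 10.25, below all others, and mutant rescue exceeded them by 0.61 (adjusted p = 0.0298), a call that was lost without knockdown replicate 1 or 2 (adjusted p up to 0.191). The gene-level values do not part the transcript of the endogenous gene from that of a construct. The paralogs IGF2BP1 and IGF2BP3, which bind the same mark, differed by -0.05 and 0.14 (adjusted p = 0.798 and 0.656).

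PRMT6, which methylates arginines of histone H3 and other proteins, fell in mutant rescue. PRMT6 (chromosome 1, 107056679 to 107067636, plus strand) was at 9.39 and 9.30 in control and at 8.49 in each mutant rescue library, a difference of -0.85 (SE 0.11, adjusted p = 0.0013) or 1.80-fold lower. Its differences from control were -1.20 in knockdown and -0.59 in rescue, which share the control libraries with this comparison. Mutant rescue did not differ from knockdown (0.36, SE 0.11, adjusted p = 0.0646) nor rescue from mutant rescue (0.26, SE 0.11, adjusted p = 0.137) by the test, so the place of mutant rescue between those groups is not resolved. MFSD2A (chromosome 1, 39955112 to 39969968, plus strand) was at 8.51 and 8.53 in control and at 8.87 and 8.60 in mutant rescue. Its libraries did not overlap, but the difference of 0.21 (SE 0.13, adjusted p = 0.267) did not pass the test.

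**Figure D1:**
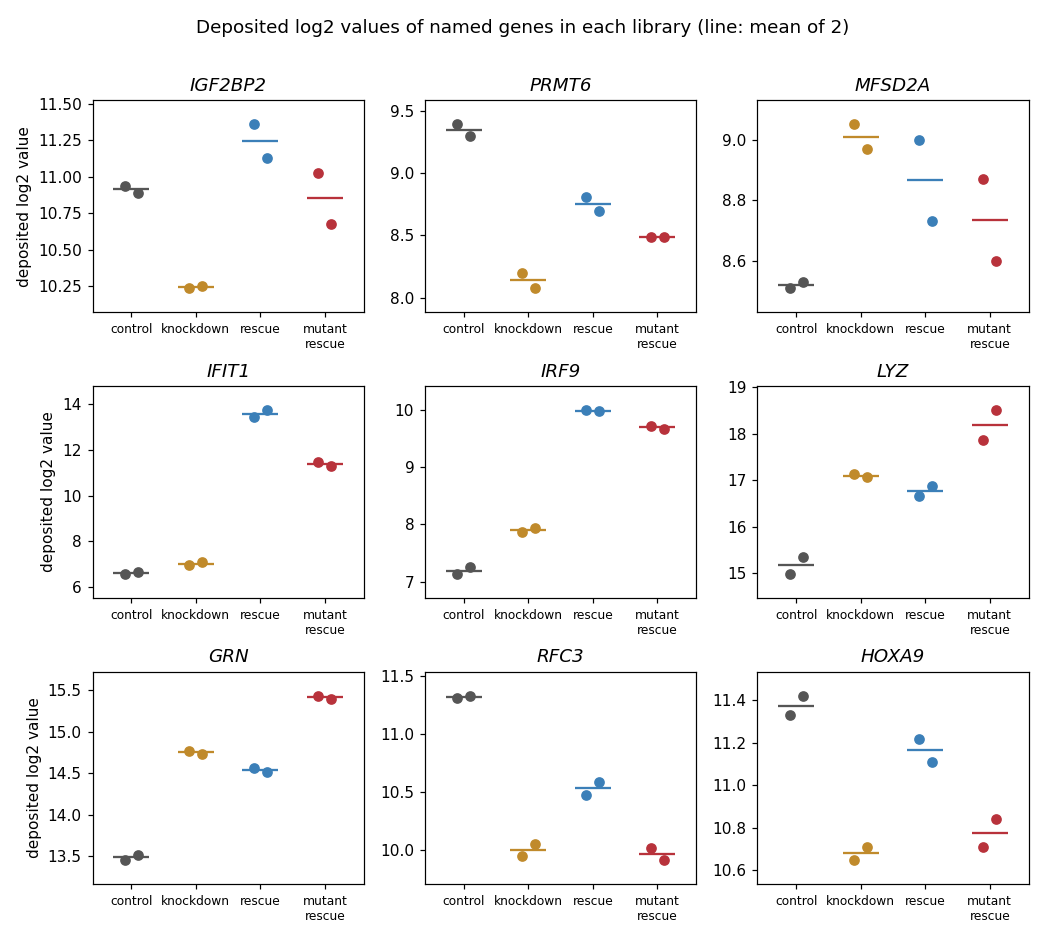
Deposited log2 values (y axis, a scale of its own in each panel) of 9 genes in the 8 libraries by group (x axis), each point a library and each line the mean of a group. IGF2BP2 in mutant rescue lies around the control level, PRMT6, RFC3 and HOXA9 lie below control in both mutant rescue libraries, and IFIT1, IRF9, LYZ and GRN lie above it.

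Across the tested genes, 1808 were called higher in mutant rescue (13.9% of those tested) and 1431 lower (11.0%), with a median difference of 0.01. Large differences ran mostly upward: 319 called genes were higher by more than 1 log2 unit and 88 lower by more than 1. The libraries of the 2 groups were apart for 8139 genes, called or not, and for all 3239 called. In the authors' deposited table, 11.1% of the tested genes it covers were called higher and 5.71% lower at the same threshold. It shares 2012 calls with those made here, and all 2012 have the same direction. The slope of library differences on the authors' log2 changes was 0.533 over the genes called in it, so fold changes given here are smaller than the authors'. The counts were 831 and 621 without control replicate 1, 1164 and 785 without control replicate 2, and for the lower genes 933 and 935 without knockdown replicate 1 or 2. The split into higher and lower depended on scaling: 55.8% of calls were higher here, 42.7% with the library medians set equal, and 25.5% on log2(ppm + 1) values, where the median difference was -0.12, and 66% in the authors' deposited table.

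**Figure D2:**
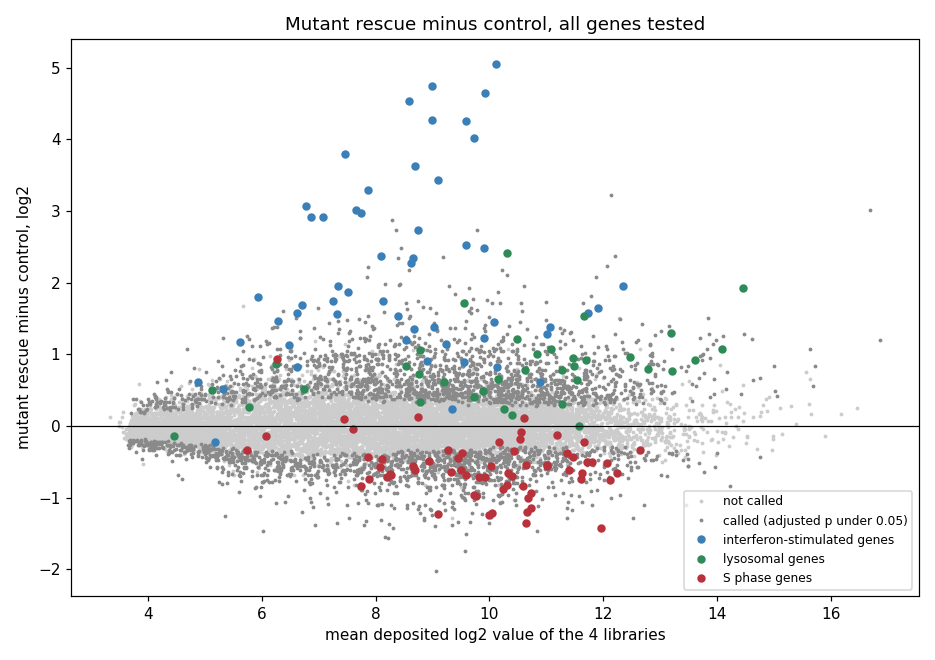
Difference between mutant rescue and control in log2 units (y axis) against the mean deposited log2 value of their 4 libraries (x axis), each point a tested gene. Most interferon-stimulated genes (blue) lie above 1, lysosomal genes (green) mostly above 0, and S phase genes (red) mostly below 0.

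Interferon-stimulated genes held the largest increases. These genes encode antiviral effectors and are switched on when interferon binds its receptor and a complex that holds STAT2 and IRF9 binds their promoters. Of the 54 in the list, all tested, 49 rose in mutant rescue (90.7%, where 13.9% of all tested genes did) and none fell, with a median difference of 1.74 where the median over all genes was 0.01. Of the 15 largest increases in the comparison, 13 are in this list. The 5 members that did not pass, named after their values were seen, were ZBP1 (-0.22), IFITM2 (0.24), CXCL11 (0.61), ADAR (0.89) and PARP12 (1.13). With log2(ppm + 1) values 1 member was called lower. Under all other settings, including those without mutant rescue replicate 2 or either control library, 49 to 52 members were called higher and none lower.

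IFI6, which limits the replication of viruses at the endoplasmic reticulum and protects cells from death, showed the largest difference. It was at 7.62 and 7.58 in control and at 12.31 and 12.98 in mutant rescue, a difference of 5.05 (SE 0.19, adjusted p = 2.07e-06) or 33.0-fold. IFIT1, which binds RNA with a foreign cap, was at 6.59 and 6.65 in control and at 11.45 and 11.28 in mutant rescue, a difference of 4.75 (SE 0.12, adjusted p = 2.64e-07). Values within each group lay within 1 unit of each other and the groups were more than 4 units apart. Its neighbours IFIT3 and IFIT2 differed by 4.65 and 4.02, and all 4 tested IFIT genes were called. The oligoadenylate synthetases, which make the activator of the nuclease RNase L, rose likewise: OAS2 by 4.27, OAS1 by 4.26, OASL by 3.63 and OAS3 by 3.02. IFI27 rose by 4.54 and SIGLEC1, a sialic acid receptor of macrophages, by 3.79. Smaller increases, chosen after their values were seen, were those of ISG15, a ubiquitin-like modifier (7.33 and 7.91 against 9.05 and 9.27, a difference of 1.54, adjusted p = 0.00103), and MX1, a GTPase that traps viral nucleocapsids (6.12 and 6.30 against 7.17 and 6.90, a difference of 0.82, adjusted p = 0.00492).

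The level of these genes in mutant rescue lay between that of knockdown and that of rescue. The list median, set against control, was 1.83 and 1.71 in the mutant rescue libraries, 0.21 and 0.25 in knockdown and 3.63 in each rescue library. In the test of mutant rescue against knockdown 49 members were higher and none lower, beside 5.59% of all tested genes called higher and 5.74% lower in that test. Without knockdown replicate 1 or 2 the count was 35 or 34. In the test of rescue against mutant rescue 50 members were higher in rescue and none lower, beside 5.89% of all tested genes higher and 4.62% lower. IFIT1, for example, was at 6.98 and 7.09 in knockdown and at 13.43 and 13.73 in rescue, so its mutant rescue values exceeded knockdown by 4.33 (adjusted p = 1.24e-06) and lay 2.21 under rescue (adjusted p = 4.79e-05).

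The promoters of 3 of these genes are printed because they carry the letters to which the complex with IRF9 is known to bind, the interferon-stimulated response element. Each is the stretch of 250 bases before the gene's start, from RefSeq (GRCh38.p14), 5′ to 3′ on the gene's strand, with capitals for GAAA, any 2 bases and GAAA, or the same on the other strand. They are the 3 largest increases of the list among genes with a single promoter window that hold the motif and were called. IFI6 lies at chr1:27672193-27672442 on the minus strand, IFIT1 at chr10:89392373-89392622 on the plus strand and IFI44L, which rose by 3.30, at chr1:78620198-78620447 on the plus strand.
IFI6: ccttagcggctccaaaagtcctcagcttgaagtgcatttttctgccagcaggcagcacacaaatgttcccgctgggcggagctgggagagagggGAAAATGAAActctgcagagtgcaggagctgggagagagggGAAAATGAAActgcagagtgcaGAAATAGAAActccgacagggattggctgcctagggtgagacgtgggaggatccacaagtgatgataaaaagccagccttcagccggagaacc
IFIT1: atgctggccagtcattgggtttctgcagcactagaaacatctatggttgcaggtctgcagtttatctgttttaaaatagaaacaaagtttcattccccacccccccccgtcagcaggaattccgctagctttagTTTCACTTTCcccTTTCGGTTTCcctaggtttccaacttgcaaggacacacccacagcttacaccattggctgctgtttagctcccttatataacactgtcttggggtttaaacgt
IFI44L: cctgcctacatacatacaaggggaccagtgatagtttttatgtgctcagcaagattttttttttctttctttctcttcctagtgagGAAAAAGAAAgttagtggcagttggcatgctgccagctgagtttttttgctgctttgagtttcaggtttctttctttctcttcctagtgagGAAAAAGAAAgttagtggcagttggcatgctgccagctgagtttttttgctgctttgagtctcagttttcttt
The motif occurs 3 times in the IFI6 stretch, beginning between 156 and 93 bases before the start, 2 times in that of IFIT1 and 2 times in that of IFI44L. Over windows of 300 bases, 250 before to 50 after the start, it was found in 35 of 60 windows (58.3%) of the 43 listed genes that had one, and in 3.57% of the 35116 windows of all genes. Since only 79.6% of the listed genes had a window, a comparison over the list is void, and the share describes these genes only. None of 70 windows of S phase genes held it. A match of letters is a description and not a site.

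Transcription factors of the pathway rose as well. IRF9 was at 7.14 and 7.25 in control and at 9.72 and 9.66 in mutant rescue, a difference of 2.49 (SE 0.10, adjusted p = 3.89e-06). STAT2 was at 10.10 and 10.41 against 11.67 and 11.80 (1.48, adjusted p = 0.000133) and IRF7 at 7.37 and 7.34 against 8.96 and 8.92 (1.59, adjusted p = 0.000174). In all 3 genes the 2 groups were apart by more than 1 unit. IRF9 did not differ between rescue and mutant rescue (0.29, adjusted p = 0.0982), whereas IRF7 was higher in rescue by 1.60 (adjusted p = 0.000343). IRF1, a factor of the interferon gamma response chosen after its values were seen, was at 8.85 and 8.87 in control and 8.67 and 8.78 in mutant rescue and did not pass (adjusted p = 0.358), while it was higher in rescue than in mutant rescue by 1.75 (adjusted p = 4.79e-05). Of 20 tested genes of the pathway, 8 rose (40%, where 13.9% of all tested genes did) and none fell. The receptor genes IFNAR1 and IFNAR2 and the kinase genes JAK1 and TYK2 were not called.

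Interferon genes themselves were barely measured. Of the 7 with a value other than 0, IFNA2 alone passed the filter. It stood at 3.48 and 3.49 in control and at 3.49 and 3.58 in mutant rescue (0.05, adjusted p = 0.653), and at 4.52 and 4.76 in rescue. Its control and mutant rescue values lay below the filter level, and it passed through the rescue libraries alone. The test between mutant rescue and control thus compares values near the floor and decides nothing. IFNB1 was at 2.99 in each control library, at 3.07 and 3.01 in mutant rescue and at 3.50 and 3.67 in rescue, with no test, as it did not pass the filter.

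Of 21 tested sensors of nucleic acids in the cytosol or endosomes and their adaptors, 8 rose in mutant rescue (38.1%) and none fell. With log2(ppm + 1) values 3 were called lower, and 1 with equal library medians or after quantile normalization. Of all tested genes 13.9% rose and 11.0% fell. IFI16, a DNA sensor, was at 7.44 and 7.56 in control and 9.75 and 9.61 in mutant rescue (2.18, adjusted p = 1.12e-05). EIF2AK2, the kinase that halts translation on double-stranded RNA, rose by 1.45, and the RNA sensor genes DDX58 and DHX58 by 1.20 and 1.17. The adaptor genes MAVS and TMEM173 were not called. In antigen presentation by class I molecules, 13 of 20 tested genes rose (65%) and none fell. HLA-E was at 11.78 and 12.04 against 12.97 and 12.88 (1.02, adjusted p = 0.000629), the peptide transporter gene TAP1 at 8.91 and 9.15 against 10.16 and 9.80 (0.95, adjusted p = 0.00325), and the immunoproteasome gene PSMB9 at 9.80 and 10.05 against 10.75 and 10.86 (0.88, adjusted p = 0.00124). The class I count fell to 7 in the fits without control replicate 1, knockdown replicate 1 or 2, or mutant rescue replicate 2, in a fit of only the 4 libraries, with no filter, and with log2(ppm + 1) values. It was 8 without control replicate 2, with array weights and in the authors' deposited table.

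**Figure D3:**
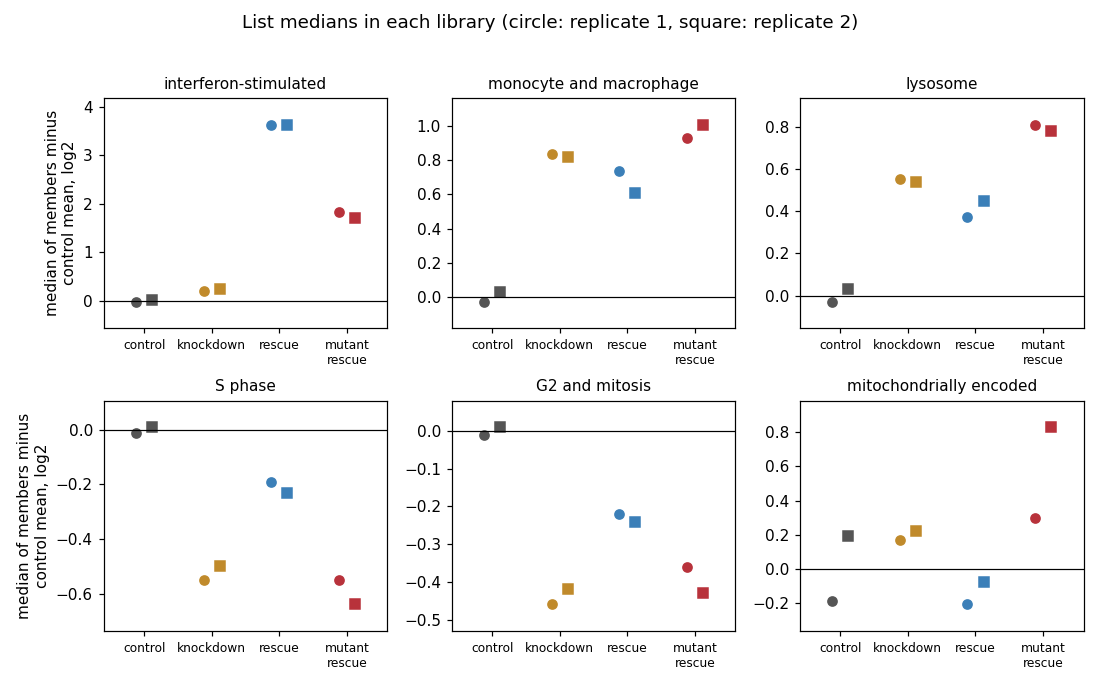
Median over the tested members of 6 gene lists in each library, minus the mean of the control libraries in log2 units (y axis), by group (x axis). For interferon-stimulated genes the mutant rescue libraries lie between knockdown and rescue, for lysosomal and monocyte genes above all other libraries, and for mitochondrially encoded genes the mutant rescue libraries lie apart at 0.30 and 0.83.

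Genes of monocytes and macrophages were higher in mutant rescue than in control. Of 34 tested, 26 rose (76.5%, where 13.9% of all tested genes did) and none fell, with a median difference of 0.95. Lysozyme, a secreted enzyme that cleaves bacterial walls, is encoded by LYZ, which stood at 14.99 and 15.36 in control and at 17.86 and 18.51 in mutant rescue, a difference of 3.01 (SE 0.22, adjusted p = 0.000106) or 8.06-fold. OLR1, a scavenger receptor for oxidised lipoprotein, was at 6.90 and 7.08 against 10.02 and 9.45 (2.74, adjusted p = 6.14e-05). PECAM1, an adhesion molecule, was at 10.96 and 10.94 against 13.32 and 13.05 (2.23, adjusted p = 1.61e-05). In each the lower mutant rescue library lay over 2 units above the higher control library. CYBB, the catalytic subunit of the phagocyte oxidase, rose by 1.98 (adjusted p = 0.000115). CSF1R, the receptor of the macrophage growth factor, was at 8.33 and 8.24 against 10.01 and 9.68 (1.57, adjusted p = 0.000276).

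Members of this list were also higher than control in the other groups that share the control libraries, with medians of 0.83 in knockdown and 0.68 in rescue. In the test of mutant rescue against knockdown 3 members were higher and none lower, and none was called without knockdown replicate 1 or 2. In the test of rescue against mutant rescue 12 were lower in rescue and none higher, a count that was 7 without rescue replicate 1, 3 without rescue replicate 2 and 0 in a fit of only those 4 libraries. Of all tested genes, 5.59% were called higher and 5.74% lower in mutant rescue than in knockdown. In rescue against mutant rescue the shares were 5.89% higher and 4.62% lower. LYZ was lower in rescue than in mutant rescue by 1.42 (adjusted p = 0.00804). PCSK5, a proprotein convertase and no member of the list, was at 10.09 and 10.95 in control, 13.55 and 13.93 in mutant rescue, 13.48 and 13.74 in knockdown and 11.60 and 12.32 in rescue. Its difference of 3.22 (SE 0.31, adjusted p = 0.00032) was among the 15 largest.

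Lysosomal hydrolases and membrane proteins rose together with them. Of 36 tested genes, 27 rose (75%, where 13.9% of all tested genes did) and none fell, with a median difference of 0.79. On log2(ppm + 1) values 1 was called lower. DNASE2, which degrades DNA in lysosomes, was at 9.01 and 9.21 in control and at 11.63 and 11.39 in mutant rescue (2.41, SE 0.12, adjusted p = 9.42e-06). GRN, the gene of progranulin, was at 13.46 and 13.51 against 15.43 and 15.40 (1.93, SE 0.10, adjusted p = 9.42e-06). The cathepsin genes CTSD and CTSB rose by 1.53 and 1.29, and GLB1, the beta-galactosidase, by 1.07 (adjusted p = 0.000266). The lower mutant rescue library lay above the higher control library in each of these genes, as in every gene called higher. In knockdown and rescue the list medians were 0.54 and 0.41 above control. Against knockdown 4 members were higher in mutant rescue, and none without knockdown replicate 1 or 2. Against rescue 13 were higher in mutant rescue, 7 without knockdown replicate 1 or 2 or rescue replicate 1, 2 without rescue replicate 2, and 3 in a fit of only those libraries. Of all tested genes, 5.59% were called higher in mutant rescue than in knockdown and 4.62% higher than in rescue. GRN exceeded its level in rescue by 0.88 (adjusted p = 0.00145) and DNASE2 by 0.94 (adjusted p = 0.00307).

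Receptors of hematopoietic growth factors overlapped this pattern: 8 of 15 tested rose (53.3%, where 13.9% of all tested genes did) and none fell. The list median was 0.58, beside 0.51 in knockdown and 0.20 in rescue against the same control. With a filter of 5 ppm, equal library medians, quantile normalization or a replicate block 1 receptor gene was called lower. With log2(ppm + 1) values 2 were called lower. CSF3R, the receptor of the granulocyte factor, was at 11.71 and 11.80 against 13.06 and 12.78 (1.17, adjusted p = 0.000333), and IL3RA at 9.93 and 10.24 against 10.78 and 10.81 (0.71, adjusted p = 0.00317). FLT3, the receptor kinase, was not called (-0.48, adjusted p = 0.0515). The count was 4 without control replicate 1 and 5 without control replicate 2. Among 20 tested transcription factors of the myeloid lineage 5 rose (25%, where 13.9% of all tested genes did) and ID1 fell (-0.39). The 5 were 2 without control replicate 1, 3 without control replicate 2 and 8 without mutant rescue replicate 1, and none was called lower in those fits or without knockdown replicate 1 or 2. The risers included CEBPE, a factor of late granulocyte differentiation, at 5.98 and 6.03 against 7.31 and 7.37 (1.33, adjusted p = 0.000165). CEBPA was at 8.06 and 8.21 in control, and its mutant rescue libraries were far apart at 8.91 and 10.67. Its difference of 1.65 (SE 0.45, adjusted p = 0.0289) lost the call without control replicate 1 or 2 (adjusted p = 0.138 and 0.103), and a fit of only the 4 libraries gave an adjusted p of 0.0502. SPI1, chosen after its value was seen, differed by 0.17 (adjusted p = 0.734).

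In class II antigen presentation, 6 of 12 tested genes rose (50%, where 13.9% of all tested genes did) and HLA-DQA1 fell (-0.56, adjusted p = 0.0261). No member was called lower without control replicate 1 or 2, knockdown replicate 1 or 2 or mutant rescue replicate 1. HLA-DMA, which loads peptide, was at 8.61 and 9.08 against 9.96 and 10.07 (1.17, adjusted p = 0.00146), and CD74, the invariant chain, at 12.46 and 12.78 against 13.43 and 13.61 (0.90, adjusted p = 0.00206). Unlike the class I genes, 6 of these were lower in rescue than in mutant rescue and 1 higher. Of all tested genes 4.62% were lower and 5.89% higher. HLA-DMA was lower in rescue by 0.97 (adjusted p = 0.00799). That count was 3 without rescue replicate 2, 4 without rescue replicate 1 or mutant rescue replicate 2, and 2 in a fit of only those libraries.

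Genes of DNA replication were lower in mutant rescue. Of 63 tested genes of S phase, 44 fell (69.8%, where 11.0% of all tested genes did) and 1 rose, with a median of -0.61. RFC3, a subunit of the clamp loader, was at 11.31 and 11.33 in control and at 10.02 and 9.92 in mutant rescue (-1.35, SE 0.09, adjusted p = 8.21e-05). All 4 GINS genes, subunits of the replicative helicase, fell, GINS4 by 1.25 and GINS2 by 1.21 on the log2 scale. Of the 6 MCM genes that form its ring, 5 fell. Control libraries lay close together in RFC3, GINS4 and GINS2, and above both mutant rescue libraries, as in every gene called lower. E2F1, a factor that activates many of these genes, was the member that rose, from 5.88 and 5.72 to 6.65 and 6.81 (0.93, adjusted p = 0.00125).

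HELLS, a chromatin remodeller of the list, fell the most of its members, from 12.62 and 12.71 to 11.19 and 11.30 (-1.42, SE 0.15, adjusted p = 0.000516). It was at 12.02 and 12.05 in knockdown and 12.22 and 12.71 in rescue. Rescue exceeded mutant rescue by 1.22 (adjusted p = 0.00257), and mutant rescue lay 0.79 under knockdown (adjusted p = 0.0198), a call lost without knockdown replicate 1 or 2 (adjusted p up to 0.155). In the list as a whole, 25 members were higher in rescue than in mutant rescue and none lower. That count was 8 without rescue replicate 1, 2 without rescue replicate 2, 9 without knockdown replicate 1 or 2, 12 without mutant rescue replicate 2 and 1 in a fit of only those 4 libraries. Against knockdown 3 members were higher and 5 lower, and 1 higher and none lower without knockdown replicate 1 or 2. Of all tested genes, 5.89% were called higher in rescue than in mutant rescue and 4.62% lower. Against knockdown, 5.59% were higher in mutant rescue and 5.74% lower. The list medians were -0.55 and -0.64 in mutant rescue, -0.55 and -0.50 in knockdown and -0.19 and -0.23 in rescue, all set against the shared control.

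Promoters of HELLS and DTL are printed as examples of listed genes that fell, have a single window and hold a motif of the E2F factors. The motif is TTTNGCGC on either strand, in capitals. Not every gene of the list was open to this choice, so larger decreases may have been left out. GINS4, which fell more than DTL, is not printed. DTL, a subunit of a ubiquitin ligase that removes the licensing factor CDT1 in S phase, was at 11.40 and 11.13 in control and at 10.24 and 9.88 in mutant rescue (-1.20, adjusted p = 0.000897). The stretches of 250 bases before the start lie at chr10:94545538-94545787 and chr1:212035498-212035747, both on the plus strand.
HELLS: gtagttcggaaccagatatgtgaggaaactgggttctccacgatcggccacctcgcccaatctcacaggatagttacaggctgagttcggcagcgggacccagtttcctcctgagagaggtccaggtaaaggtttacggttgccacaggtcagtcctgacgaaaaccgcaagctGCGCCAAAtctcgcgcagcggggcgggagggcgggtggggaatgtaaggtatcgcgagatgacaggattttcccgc
DTL: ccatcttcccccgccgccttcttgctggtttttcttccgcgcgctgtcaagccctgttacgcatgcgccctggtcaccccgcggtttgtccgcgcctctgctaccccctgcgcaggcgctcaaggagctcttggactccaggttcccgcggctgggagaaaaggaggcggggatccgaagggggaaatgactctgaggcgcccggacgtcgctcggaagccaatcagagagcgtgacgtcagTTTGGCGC
The motif begins 76 bases before the start of HELLS and 8 bases before that of DTL. In windows of 300 bases it was found for 22 of 52 S phase genes (42.3%) with a window, in 31.4% of their 70 windows, and in 1.79% of the windows of all genes. It was in none of the 60 windows of interferon-stimulated genes. Of the S phase genes 82.5% had a window, and the motif was found in 2.69% of the windows of all tested genes, of which 77.5% had one, so these shares describe the genes with a window only.

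Genes of G2 and mitosis were lower as well, with smaller differences. Of 66 tested, 39 fell (59.1%, where 11.0% of all tested genes did), with a median of -0.42. In knockdown and rescue the list medians were -0.44 and -0.23 against the same control. The 1 called higher, PSRC1 (0.49, adjusted p = 0.0355), lost its call without control replicate 1 or 2, knockdown replicate 1 or 2 or mutant rescue replicate 2, in a fit of only the 4 libraries and in the authors' deposited table. CENPF, a kinetochore protein, was at 11.32 and 11.21 against 10.28 and 10.43 (-0.91, adjusted p = 0.000577), and CENPE, the kinetochore motor, at 8.40 and 8.31 against 7.25 and 7.37 (-1.04, adjusted p = 0.000826). The checkpoint kinase gene BUB1 and the condensin gene NCAPH fell by 0.91 and 0.89 on the log2 scale. MKI67 and TOP2A, chosen after their values were seen, did not pass, at -0.09 (adjusted p = 0.827) and -0.38 (adjusted p = 0.0619). The number that fell was 24 without control replicate 2, 21 in the authors' deposited table and 19 in a fit of only the 4 libraries. CDKN1A, the inhibitor p21 of cyclin-dependent kinases and a target of p53, was at 13.16 and 13.28 against 14.57 and 14.43 (1.28, adjusted p = 0.000133). RBL1, the pocket protein p107, fell from 9.47 and 9.32 to 8.36 and 7.99 (-1.22, adjusted p = 0.00107).

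Of 28 tested p53 targets 8 rose (28.6%) and 1 fell (3.57%), beside 13.9% and 11.0% of all tested genes. The list median of 0.11 turned to -0.04 with log2(ppm + 1) values. BAX, a death effector, was at 9.71 and 9.94 against 10.93 and 11.01 (1.14, adjusted p = 0.00063), and RRM2B, a ribonucleotide reductase subunit, fell by 0.91 on the log2 scale (adjusted p = 0.00657). The count of 8 was 4 without control replicate 1 or 2 and 5 with log2(ppm + 1) values. Of 44 tested genes of ribosome biogenesis and MYC targets 17 fell (38.6%) and 2 rose (4.55%). The list median was -0.28, beside -0.42 in knockdown and -0.20 in rescue against the same control. DDX21, a nucleolar helicase, was at 12.26 and 12.21 against 11.23 and 11.42 (-0.91, adjusted p = 0.000872), and MRTO4, an assembly factor, fell by 0.83 on the log2 scale. The 17 were 11 without control replicate 2 and 9 in a fit of only the 4 libraries.

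The HOXA and MEIS1 program, which maintains leukemias with KMT2A rearrangements such as MOLM13, fell in part. Of 19 tested genes 7 fell (36.8%, where 11.0% of all tested genes did) and none rose. The list median was -0.24, beside -0.34 in knockdown and -0.07 in rescue against the same control. Of the 7 tested HOXA genes, however, only HOXA9 was called. HOXA9 was at 11.33 and 11.42 in control and at 10.71 and 10.84 in mutant rescue (-0.60, SE 0.09, adjusted p = 0.00325). SATB1, a chromatin organiser, was at 11.52 and 11.36 against 10.47 and 10.36 (-1.02, adjusted p = 0.000311), MEF2C at 11.88 and 11.65 against 11.04 and 10.63 (-0.93, adjusted p = 0.00287), and CDK6, the kinase of the G1 phase, at 12.04 and 11.78 against 10.92 and 10.98 (-0.96, adjusted p = 0.00227). The 2 groups did not overlap in any of the 4 genes, as was so for all 3239 called genes. MEIS1, chosen after its values were seen, was at 10.95 and 11.08 against 11.31 in each mutant rescue library and did not pass (0.29, adjusted p = 0.177). The count of 7 was 4 without control replicate 1, and with mutant rescue replicate 1 left out 2 members were called higher. Of 9 tested genes of the leukemia stem cell score, CDK6 was the single one called (11.1%, beside 11.0% of all tested genes lower).

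**Figure D4:**
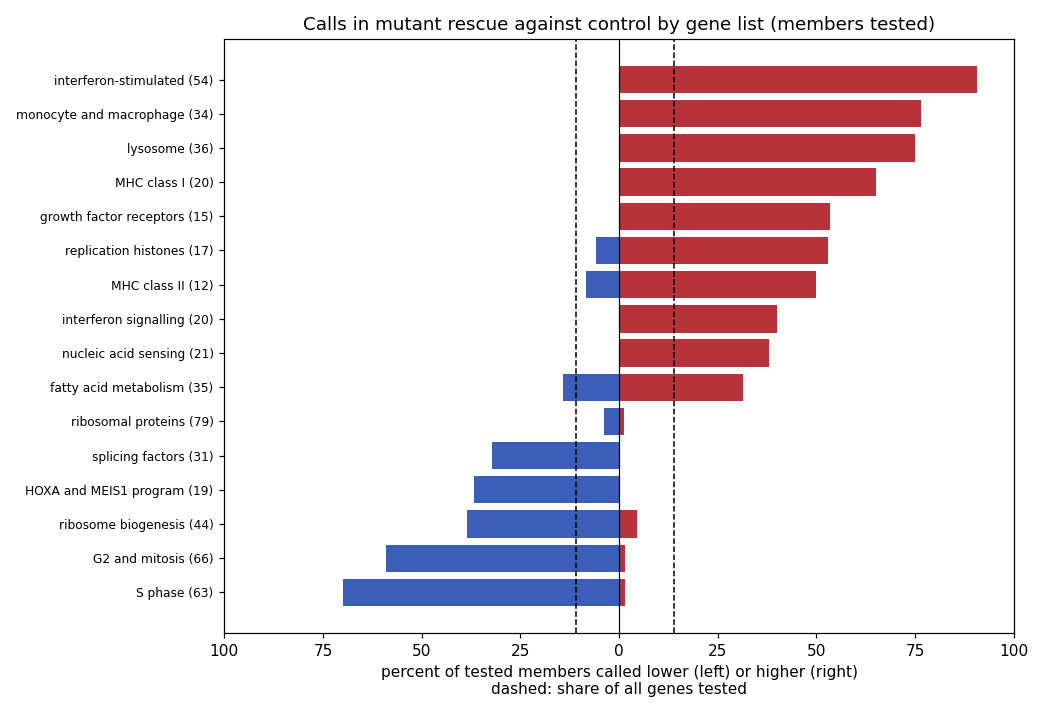
Percent of the tested members of 16 gene lists (rows, with the number tested) called higher (red, to the right) or lower (blue, to the left) in mutant rescue than in control. Dashed lines mark the shares of all tested genes, 13.9% higher and 11.0% lower; interferon-stimulated, monocyte and lysosomal genes lie farthest to the right and S phase genes farthest to the left.

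Of 26 tested genes of NF-kB and inflammation, 3 rose (11.5%) and 4 fell (15.4%), shares near the 13.9% and 11.0% of all tested genes. Without mutant rescue replicate 1 the number higher was 6. NFKBIA, the inhibitor that NF-kB induces, was at 13.19 and 13.34 in control, 12.24 and 12.09 in mutant rescue, 12.35 and 12.42 in knockdown and 13.66 and 13.44 in rescue, a difference from control of -1.10 (adjusted p = 0.000481). NFKBIZ fell by 1.00 on the log2 scale, whereas the chemokine gene CCL3 rose by 1.17 (adjusted p = 0.00101) and the receptor antagonist gene IL1RN by 0.98. NFKBIA was higher in rescue than in mutant rescue by 1.39 (adjusted p = 0.000319). Of 22 tested immediate early genes 6 rose (27.3%) and NR4A2 fell (4.55%). FOS was at 10.56 and 10.49 against 11.36 and 11.25 (0.78, adjusted p = 0.00146), and the phosphatase gene DUSP1 at 10.57 and 10.34 against 11.34 and 11.10 (0.76, adjusted p = 0.0036). FOS and DUSP1 were lower in rescue than in mutant rescue by 0.86 and 0.88 (adjusted p = 0.00221 and 0.00496), for DUSP1 not without rescue replicate 2 (adjusted p = 0.0513). The NR4A2 call was lost in a fit of only the 4 libraries (adjusted p = 0.0611), and the authors' deposited table gives it an adjusted p of 0.0716.

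A set of 16 genes was called against control in mutant rescue and in rescue with opposite signs. APOL6, an apolipoprotein of the interferon response, was at 8.99 in each control library, 8.42 and 8.39 in mutant rescue, 8.75 and 8.80 in knockdown and 10.26 and 10.31 in rescue. It fell by 0.58 on the log2 scale against control in mutant rescue (adjusted p = 0.00367), and rescue exceeded mutant rescue by 1.88. GPR22, an orphan receptor, was at 7.81 and 8.06 in control, 7.10 and 7.06 in mutant rescue and 8.48 and 8.83 in rescue, with a difference of -0.86 from control and of 1.57 between the rescue arms. RAB11FIP1, an effector of recycling endosomes, was at 10.58 and 10.32 in control, 9.70 in each mutant rescue library and 10.95 and 10.92 in rescue. These 3 genes were picked for calls of opposite sign against control. That the control libraries lie between the 2 rescue arms, and that the arms differ, follows from that choice. TNFAIP3, the ubiquitin-editing brake on NF-kB, lay at 10.16 and 9.55 in control and 9.31 and 9.01 in mutant rescue, and its call (adjusted p = 0.0281) was lost without control replicate 1 (0.128), knockdown replicate 1 or 2 (0.0503 each) or mutant rescue replicate 2 (0.113), and in a fit of only the 4 libraries (0.0659).

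Genes with the largest decreases outside the cell cycle lists included several that were lower than control in knockdown and rescue as well. LRRC58 fell the most of the 15, from 10.21 and 9.93 to 8.17 and 7.93 (-2.02, SE 0.13, adjusted p = 5.86e-05), with differences from control of -1.20 in knockdown and -1.39 in rescue. SRI, the gene of the calcium-binding protein sorcin, was at 10.37 and 10.52 against 8.59 and 8.79 (-1.75, adjusted p = 6.6e-05), with -2.18 and -1.90 in knockdown and rescue. PTPMT1, a mitochondrial phosphatase of cardiolipin synthesis, fell by 1.57 on the log2 scale, beside -1.68 and -1.64. G3BP2, a stress granule protein, was at 11.65 and 11.47 against 10.23 and 9.96 (-1.47, adjusted p = 0.00016), and LMAN1, a cargo receptor of the secretory pathway, fell by 1.38. The control libraries lay above all 6 others in each of these 5 genes, and the 3 groups share those control libraries. HSH2D, an adaptor with an SH2 domain, was at 8.86 and 8.97 in control, 7.64 and 7.46 in mutant rescue and 8.76 and 8.64 in rescue, and rescue exceeded mutant rescue by 1.16 (adjusted p = 0.00165). DUTP2, SMG1P1 and SMG1P3 (-1.47, -1.39 and -1.38) have near-identical copies elsewhere in the genome, so reads could be split between copies and their values are uncertain.

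Of 21 tested writers, erasers and readers of N6-methyladenosine, 1 rose (4.76%) and 3 fell (14.3%), beside 13.9% and 11.0% of all tested genes. The 3 were 1 without control replicate 1 or 2 or mutant rescue replicate 2, 2 without knockdown replicate 1 or 2, and 6, with 4 higher, without mutant rescue replicate 1. The call of METTL16, a methyltransferase (-0.44, adjusted p = 0.0351), was lost without any 1 of the control, knockdown or mutant rescue libraries (adjusted p up to 0.133), and that of HNRNPA2B1, a reader (-0.57, adjusted p = 0.0156), without control replicate 2 (0.0765) or mutant rescue replicate 2 (0.0563). RBM15, which guides the writer complex, was at 8.88 and 8.68 against 8.29 and 8.07 (-0.60, adjusted p = 0.0105), a call lost without control replicate 1 (adjusted p = 0.0713). The writer subunit WTAP was at 11.15 and 11.61 against 11.75 and 12.37 (0.68, adjusted p = 0.0473), and the call did not hold without control replicate 1 (adjusted p = 0.255), without mutant rescue replicate 2 (0.199), without 1 of the knockdown or rescue libraries (0.0602 to 0.0762) or under most other settings. The catalytic METTL3 differed by -0.07 (adjusted p = 0.603). Among 10 tested arginine methyltransferases and partners, PRMT6, PRMT3 and CLNS1A fell and WDR77, a partner of PRMT5, rose (0.29, adjusted p = 0.0391). The call of WDR77 was lost in every fit without 1 library (adjusted p of 0.0532 to 0.144). PRMT3, which methylates a ribosomal protein, fell by 0.87 on the log2 scale (SE 0.15, adjusted p = 0.00452). CLNS1A, which brings substrates to PRMT5, was at 11.54 and 11.73 against 10.59 and 10.74 (-0.97, adjusted p = 0.000552). Splicing factors had list medians of -0.11 in mutant rescue, -0.33 in knockdown and -0.14 in rescue, all against the same control. Of 31 tested splicing factors 10 fell (32.3%), including SRSF1 (-0.58, adjusted p = 0.00258), and none rose. That count was 6 without control replicate 2 and 5 in a fit of only the 4 libraries, and without mutant rescue replicate 1 a further 6 were called higher.

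Lipid genes were mixed. Of 35 tested genes of fatty acid metabolism 11 rose (31.4%) and 5 fell (14.3%), beside 13.9% and 11.0% of all tested genes. The list median of 0.10 turned to -0.06 with log2(ppm + 1) values. The 11 were 3 without control replicate 1, 5 without knockdown replicate 1 or 2, 6 without mutant rescue replicate 2, 4 in a fit of only the 4 libraries, and 5 to 7 with no filter, array weights, other scaling or the authors' deposited table. The 5 that fell were 1 without control replicate 1 and in a fit of only the 4 libraries, and 2 without control replicate 2, knockdown replicate 1 or 2 or mutant rescue replicate 2. PPARG, the lipid-sensing receptor, was at 5.59 and 5.60 against 6.44 and 6.31 (0.78, adjusted p = 0.00146), PLIN2, a coat protein of lipid droplets, at 10.26 and 10.54 against 11.41 and 11.14 (0.88, adjusted p = 0.00215), and the desaturase FADS2 fell from 7.35 and 7.31 to 6.63 and 6.59 (-0.72, adjusted p = 0.00572). Of 16 tested genes of lysophospholipid transport and acylation, MFSD2A among them, 5 rose (31.2%) and 1 fell (6.25%). The 5 were 2 without control replicate 1, in a fit of only the 4 libraries and with log2(ppm + 1) values, and 3 without control replicate 2, without knockdown replicate 1 or 2, with equal library medians, with array weights and in the authors' deposited table. None was lower without control replicate 1 or 2 or mutant rescue replicate 2. PLA2G15, the lysosomal phospholipase, was at 9.92 and 9.83 against 11.00 and 10.86 (1.05, adjusted p = 0.000239), and the acyltransferase gene MBOAT7 at 9.29 in each control library against 10.23 and 10.42 (1.03, adjusted p = 0.000732). The amino acid transporter gene SLC38A1 fell from 10.41 and 10.20 to 9.14 and 9.04 (-1.22, adjusted p = 0.000243), and the serine pathway gene PSAT1 by 0.64 on the log2 scale (adjusted p = 0.00455).

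Of 13 tested mitochondrially encoded transcripts, 5 rose in mutant rescue (38.5%), 8 did not pass and none fell, with a median of 0.58. Of all tested genes 13.9% rose and 11.0% fell. MT-CO1 was at 13.18 and 13.51 in control and at 14.12 and 14.87 in mutant rescue (1.15, SE 0.22, adjusted p = 0.00714), and MT-ND1 at 12.15 and 12.39 against 13.02 and 14.06 (1.27, SE 0.27, adjusted p = 0.0125). Without control replicate 1 none of the 13 was called (adjusted p = 0.0618 for MT-CO1 and 0.0882 for MT-ND1). Without mutant rescue replicate 2, or without knockdown replicate 1 or 2, 2 were called, and without mutant rescue replicate 1 the count was 8. The median was 0.30 without mutant rescue replicate 2 and 0.83 without mutant rescue replicate 1. Of 79 tested cytosolic ribosomal protein genes, 1 rose (1.27%) and 3 fell (3.8%), with a median of -0.06. Without mutant rescue replicate 1 the count was 13 higher and 2 lower and the median 0.13. The median was -0.25 without mutant rescue replicate 2, -0.20 without control replicate 1 and 0.08 without control replicate 2, so its sign rests on single libraries. The number lower was 1 without control replicate 2 or knockdown replicate 1 or 2, 16 after quantile normalization and 18 with log2(ppm + 1) values. RPLP0, a stalk protein, was the one that rose, from 14.35 and 14.49 to 15.00 and 15.17 (0.67, adjusted p = 0.00444). Of 17 tested replication-dependent histone genes, whose transcripts mostly lack the poly(A) tail used to capture messenger RNA, 9 rose (52.9%) and 1 fell (5.88%). HIST1H2AC was at 8.25 and 8.38 against 9.77 and 9.72 (1.43, adjusted p = 9.54e-05). Histone genes have near-identical copies, so these values are uncertain, and 5 rose without control replicate 2.

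Rescue against knockdown shares no library with mutant rescue against control, so the calls of the 2 could be set side by side. Both come from 1 fit over all 8 libraries and share each gene's estimate of the spread, so the 2 sets of calls are not independent. In that test 3.22% of genes were called higher in rescue and 1.02% lower. Of the 1808 genes higher in mutant rescue than in control, 156 were also higher in rescue than in knockdown, which is 8.63% of the first list and 37.2% of the second, and 49 of these are in the interferon-stimulated list. A further 53 of the 1808 were lower in rescue than in knockdown. Of the 1431 genes lower in mutant rescue than in control, 30 were lower in rescue than in knockdown (2.1% and 22.6% of the lists) and 85 were higher.

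Markers of other cell types were low throughout. All 13 markers of myeloid leukemia cells were tested, and their summed level was 4220 to 4560 ppm of the linear total in control and 17300 to 24800 in mutant rescue, of which LYZ makes up most. T and NK cell markers summed to 42.9 to 43.4 ppm in control and 35.7 to 36.9 in mutant rescue, B cell markers to 5.2 to 5.48 and 4.58 to 4.67, erythroid and megakaryocyte markers to 2.07 to 2.14 and 1.88 to 1.89, and fibroblast, epithelial and endothelial markers to 39.7 to 40 and 37.2 to 38.4. CD3E, MS4A1, HBA1, HBA2, HBG1, GYPB, PPBP, COL3A1, KRT19 and KDR were at 0 in every library. None of the tested markers of other cell types rose, and 3 fell: KLRD1, KRT18 and CDH1. Those 3 calls were lost without control replicate 1 or 2 (adjusted p from 0.0606 to 0.153).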

How the data were processed

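RNA was captured with oligo dT and sequenced from 8 libraries, 2 in each of 4 groups. The deposited table holds log2 expression values that the authors normalized over the 8 libraries with HOMER, per the file headers, beside the authors' own comparisons, each with a log2 fold change, a raw p-value and an adjusted one. Trim Galore, kallisto, HOMER and the build GRCh38 are named in the submitters' processing notes, with no version. Read counts were not used here, so depth is unknown and no counting interval is given. Low values lie close together in the library columns, so fold changes understate the change of low genes.

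Of the listed genes, 1 without a symbol, 26 with a number for a symbol and 10936 at 0 in every library were left out. Genes at 1 ppm or more of the linear total in at least 2 libraries were tested with limma 3.58.1 (R 4.3.3): group means over all 8 libraries, empirical Bayes with a mean trend, 4 residual degrees of freedom, Benjamini-Hochberg adjustment over 13016 genes and a threshold of 0.05. All tests are two-sided. Using 8 libraries lets the groups share 1 estimate of the spread. Replicate differences had an SD of 0.303 in mutant rescue and 0.148 in knockdown, so the shared estimate can be too small for mutant rescue. The 6 contrasts between groups were fitted. The script was tested on simulated data.

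Genes were named by a rule: the genes of the series title, the IGF2BP family and interferon genes, the 15 largest called increases and decreases with libraries apart and at least 5 ppm, up to 5 called members of smallest adjusted p in each of 48 lists, and up to 6 genes with signs opposite to rescue. Every other gene named was chosen after its values were seen. The members and lists were chosen with earlier results of these data known. Positions are from GENCODE v29, which held 93.1% of tested symbols. Alternatives were other filters, scalings, pseudocounts, weights and models, and leaving out each library. Some genes are not reported here.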

Additional observations from a re-analysis of the deposited data

How the results depend on the processing

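Of 215 named genes tested, 208 were called between mutant rescue and control, and none of these calls changed sign under any alternative run. Of the 208 calls, 41 were lost in a fit of only the 4 libraries, 48 without control replicate 1, 31 without control replicate 2 and 29 without mutant rescue replicate 2. The 1808 genes higher than control became 1061 in the fit of only the 4 libraries and 1122 with log2(ppm + 1) values, and 831 to 2391 with 1 library left out. The 1431 lower genes became 729 and 3278 under the same settings, 761 with array weights and 743 in the authors' deposited table, and 621 to 1559 with 1 library left out. Between mutant rescue and knockdown 1474 genes were called, against 274 in a fit of only those libraries, 572 with no filter, 712 after quantile normalization and 2969 with log2(ppm + 1) values, and 79 to 2801 with 1 library left out. Between rescue and mutant rescue 1368 were called, against 193 in a fit of only those libraries, 776 with no filter and 638 with array weights, and 241 to 2869 with 1 library left out. Between rescue and knockdown 552 were called, against 1244 in a fit of only those libraries, 1635 with array weights and 1316 in the authors' deposited table, and 171 to 863 with 1 library left out. Fits of fewer libraries have fewer residual degrees of freedom and take the spread from fewer groups or libraries, and otherwise the cause was not tested. Where a group kept 1 library, that library was assumed to vary like the other groups. With a replicate block the 5 counts were 2000, 1541, 1804, 1758 and 591. Replicates of the same number deviated together in some pairs of groups and not in others (correlations of -0.02 to 0.41). The correlation was 0.41 between knockdown and rescue and 0.19 between control and mutant rescue. Whether replicates of the same number were handled together is not in the labels. Of the named calls the block ended that of LARS (adjusted p = 0.0562). What depth limits could not be given, as depth is unknown.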

Other observations

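The GBP and APOL families, chosen after their values were seen, had members called in either direction in mutant rescue. Guanylate-binding proteins are GTPases that attack intracellular pathogens and are known for their induction by interferon gamma. Of 6 tested, GBP2 rose against control (0.98, adjusted p = 0.0049 in limma) and GBP4 and GBP6 fell (-0.45 and -0.39, adjusted p = 0.04 and 0.0255). Of the same 6, 5 were called higher in rescue than in control, and 3 were higher in rescue than in mutant rescue. Of all 13016 tested genes, 13.9% rose and 11.0% fell in mutant rescue against control. In rescue, 640 of the 13016 were called higher than control and 297 lower. Between the rescue arms, 5.89% were higher in rescue than in mutant rescue and 4.62% lower. Of 5 tested APOL genes, which encode apolipoprotein L proteins, APOL2 and APOL3 rose in mutant rescue (1.63 and 0.34, adjusted p = 0.00182 and 0.0138) and APOL6 fell. In rescue 4 of the 5 were called higher than control, and 3 were higher in rescue than in mutant rescue.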
